A study of Mus musculus with 26 samples.

Results

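The 10 genes described here encode the transforming growth factor beta (TGF-beta) ligands Tgfb1, Tgfb2 and Tgfb3, their receptors Tgfbr1, Tgfbr2 and Tgfbr3, and the latent TGF-beta binding proteins Ltbp1, Ltbp2, Ltbp3 and Ltbp4. They were taken by name from the 41442 gene rows that both RNA-seq count tables list, and all 10 passed the filter on low counts in both tables. RNA was sequenced from sorted mesenchymal cells of the mouse reproductive tract that carried a red reporter, Rosa-Tomato. The fetal table holds cells labelled through Gli1-CreER, a tamoxifen-dependent recombinase made in cells that express the hedgehog target Gli1, taken on embryonic days E14.5 and E16.5 from the mesonephroi of XX (female) or XY (male) embryos, with 3 libraries in each of the 4 groups. The uterine table holds 3 libraries of Gli1+ cells and 3 of Amhr2+ cells from the female neonatal uterus at E19.5, the latter labelled through Amhr2-Cre, driven by the gene of the anti-Müllerian hormone receptor. Dams of both lines had received 1 mg of tamoxifen on E12.5 and on E13.5, so all groups share that treatment. The Gli1+ cells are therefore cells that expressed Gli1 around those days and their descendants, and need not express it when sorted, whereas Amhr2-Cre needs no tamoxifen. The labels do not say whether replicates came from separate litters or animals, so p-values measure the spread between these libraries, which may be technical.

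TGF-beta is made as a precursor whose propeptide stays bound to the mature growth factor and keeps it latent. Latent TGF-beta binding proteins attach this complex to fibrillin and fibronectin fibres of the extracellular matrix, where integrins or proteases release the ligand. Released ligand binds the type II receptor Tgfbr2, which activates the type I receptor Tgfbr1, and Smad2 and Smad3 then carry the signal to the nucleus. Tgfbr3, also called betaglycan, is a co-receptor that presents ligand, Tgfb2 above all. Ltbp2, unlike its relatives, does not bind latent TGF-beta and is known mainly as a component of elastic fibres. The mesonephros carries the Wolffian and Müllerian ducts, whose mesenchyme forms the connective tissue and muscle of the male and female tract.

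The 250 bases upstream of the start of 4 of these genes are shown because they illustrate how differently their promoters are built and covered by accessible chromatin. They come from RefSeq (GRCm38.p6, the assembly called mm10), in which 8 of the 10 genes were found, all except Tgfb3 and Tgfbr3. Each runs 5′ to 3′ towards the gene. Capitals mark GC boxes (GGGCGG on either strand), a TATA box (TATAAA) and a short Smad motif (CAGACA).
Tgfb1 chr7:25686752-25687001 (plus strand): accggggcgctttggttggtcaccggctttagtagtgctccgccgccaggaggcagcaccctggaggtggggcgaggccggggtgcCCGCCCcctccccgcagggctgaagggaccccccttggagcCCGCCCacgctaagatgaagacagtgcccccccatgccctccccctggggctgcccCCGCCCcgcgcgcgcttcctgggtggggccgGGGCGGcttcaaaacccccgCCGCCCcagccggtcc
Tgfbr1 chr4:47352972-47353221 (plus strand): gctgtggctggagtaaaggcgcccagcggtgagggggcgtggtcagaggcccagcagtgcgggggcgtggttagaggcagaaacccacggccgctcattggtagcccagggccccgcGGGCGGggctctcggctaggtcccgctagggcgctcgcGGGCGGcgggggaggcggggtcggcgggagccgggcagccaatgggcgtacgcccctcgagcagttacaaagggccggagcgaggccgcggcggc
Tgfb2 chr1:186705990-186706239 (minus strand): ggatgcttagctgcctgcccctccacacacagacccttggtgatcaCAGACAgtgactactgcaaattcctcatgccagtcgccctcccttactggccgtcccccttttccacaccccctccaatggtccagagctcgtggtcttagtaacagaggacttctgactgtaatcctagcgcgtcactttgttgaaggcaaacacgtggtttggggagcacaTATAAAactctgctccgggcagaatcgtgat
Ltbp2 chr12:84876492-84876741 (minus strand): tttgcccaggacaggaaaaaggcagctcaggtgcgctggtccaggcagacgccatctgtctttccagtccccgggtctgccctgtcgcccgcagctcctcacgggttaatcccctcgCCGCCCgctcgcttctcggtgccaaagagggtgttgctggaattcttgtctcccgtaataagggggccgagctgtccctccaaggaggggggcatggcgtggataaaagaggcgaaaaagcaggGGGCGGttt
The Tgfb1 window had 75.2% G and C and 5 GC boxes, and the Tgfbr1 window 74.8% and 2 GC boxes. The Tgfb2 window was at 53.6%, with no GC box, a TATA box at -31 to -26 and a Smad motif at -204 to -199 relative to the start. The Ltbp2 window, at 61.6%, held 2 GC boxes and no exact match to TATAAA. Over all 32851 RefSeq promoters cut to the same 250 bases, the median was 52.4% G and C, and 32.7% held GGGCGG, 12.4% held TATAAA and 17.1% held CAGACA on either strand. The GLI motif GACCACCCA and the CArG box were found in none of the 8 windows, against 0.225% and 1.47% of all. These are matches of letters and do not show that a factor binds.

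Accessible chromatin was available as 1 list of 71040 ATAC-seq peaks for all fetal Gli1+ samples, with positions only, so the groups could not be compared at any peak. All 10 genes had a peak within 1 kb of an annotated start, against 89.1% of the 14577 tested genes found in the annotation. A peak covered the start given in the count table for 6 of the 10: Tgfb1, Tgfb3, Tgfbr1, Tgfbr2, Tgfbr3 and Ltbp1. With every annotated start considered, 7 of the 10 had a peak on one, against 81.3% of the tested genes. The Tgfb1 peak, chr7:25686760-25687384, covered 242 of the 250 bases shown above, and the Tgfbr1 peak, chr4:47352790-47353528, covered all 250. None of the Tgfb2 or Ltbp2 bases shown lay in a peak. The nearest Tgfb2 peak, chr1:186705218-186705660, began 329 bases inside the gene, and Ltbp2 had a peak on either side of its start, at -493 to -319 and at 499 to 789. Inside the genes, Tgfbr3 held 19 peaks, 18 of them wholly intronic, and Ltbp1 held 14, of which 12 were. Per length, Ltbp4 was the most densely covered of the 10, with 2.15 peaks per 10 kb, and Tgfbr1 the least, with 0.324. The median over all tested genes was 0.606 per 10 kb.

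**Figure D1:**
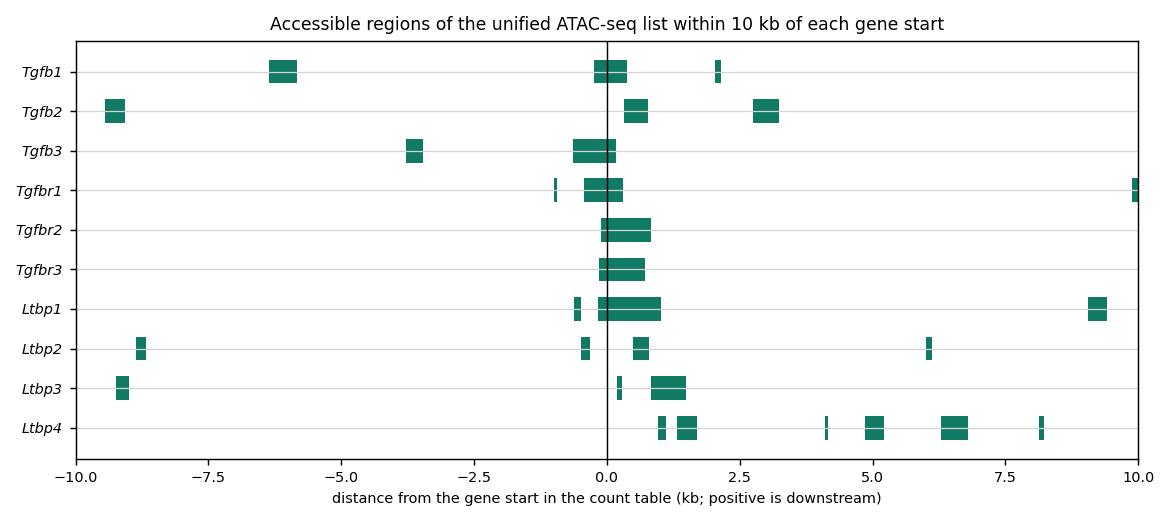
ATAC-seq peaks (green bars, drawn to scale) within 10 kb of the start of each of the 10 genes, given as distance in kb from the gene start in the count table, with positive distances downstream. A peak lies over the start of 6 genes, and Tgfb2, Ltbp2, Ltbp3 and Ltbp4 have peaks beside it only.

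Library totals were 23382983 to 64602477 counts in the fetal table, with 17858 genes tested, and 28709191 to 37541045 in the uterine table, with 16195 tested. Levels are CPM, the read counts of a gene scaled to the size of its library, and means are given ± SD over 3 libraries. The SD of the 10 genes had a median of 5.86% of the mean in fetal and 7.01% in uterine groups. The largest, 37.2%, was that of Ltbp2 in Amhr2+ cells. The 6 mesenchyme markers together reached 25384 to 46043 CPM in the fetal table and 21208 to 43354 CPM in the uterine one. Most of each sum was from the collagen genes Col1a1 and Col3a1. In E14.5 females their means were 13477 and 13468 CPM, against 104 CPM for Tcf21. The marker lists of 7 other cell types each summed to at most 133 CPM. Smooth muscle markers were the exception, with sums of 302 to 2893 CPM (fetal) and 1122 to 2340 CPM (uterine). In such bulk samples fewer cells of a type and less RNA per cell cannot be told apart.

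Between E14.5 and E16.5 Tgfb1 and Tgfbr1 fell in the sorted cells of both sexes. Tgfb3, Tgfbr2 and the latent binding genes Ltbp2, Ltbp3 and Ltbp4 rose. All adjusted p-values are from edgeR's quasi-likelihood test with Benjamini-Hochberg adjustment over all genes tested, a gene passed at an adjusted p under 0.05, and log2 differences are given ± SE. In females 9 of the 10 genes passed with age, against 39.6% of all genes. They comprised 7 that were higher at E16.5 (21% of all genes) and 2 that were lower (18.6%). In males 7 passed, against 23.3% of all genes, with 5 higher (13.1%) and 2 lower (10.2%). The libraries of the 2 ages did not overlap for 9 genes in females and 7 in males, as for 56.6% and 34.9% of all genes. The median log2 difference with age was 0.34 over the 10 genes in females, against 0.00 over all genes, and 0.13 in males, against -0.01. Cell type markers changed with age too. In both sexes the mesenchyme markers Col1a1, Col3a1, Dcn and Vim rose and the epithelial markers Krt8 and Krt18 fell. Of the markers of gonadal somatic cells, Sox9 and Star fell and Foxl2 rose in both sexes. The part of such changes in the age differences of the 10 genes was not tested.

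At both fetal ages males had more Ltbp2 and Tgfb3 and females more Ltbp1. At E16.5 males also had more Tgfb1 and Ltbp4, and females slightly more Tgfbr2 and Ltbp3. At E14.5 3 of the 10 genes passed, against 6.28% of all genes, with 1 higher in females (2.59%) and 2 lower (3.69%), and the sexes did not overlap for 7 (27.2%). Without E14.5 female 1 or 2 or male 2 or 3, only Ltbp2 still passed. At E16.5 7 genes passed, against 27.3% of all genes, with 3 higher in females (13.2%) and 4 lower (14.1%), and the sexes did not overlap for 9 (38.3%). The median log2 difference was -0.13 over the 10 genes at E14.5 and -0.15 at E16.5, against -0.01 and 0.01 over all genes. The sex and age comparisons share groups and are not independent of each other.

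The female minus male difference itself changed with age for Ltbp2 and Ltbp4, which became still lower in females relative to males. These 2 genes compare with 10% of all genes, of which 4.66% changed upwards and 5.36% downwards. The count was 5 with the replicate number within each age as a block, 4 without E16.5 male 2, and 1, Ltbp4, without E14.5 female 1, 2 or 3, E16.5 female 1 or 3 or E16.5 male 3.

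In the uterus 7 of the 10 genes passed, against 23.9% of all genes, and all 7 were lower in Amhr2+ than in Gli1+ cells, against 13.7%. None was higher, against 10.1%. The 2 cell populations did not overlap for 7 genes, as for 44.4% of all. The median log2 difference was -0.48 over the 10 genes and -0.00 over all.

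**Figure D2:**
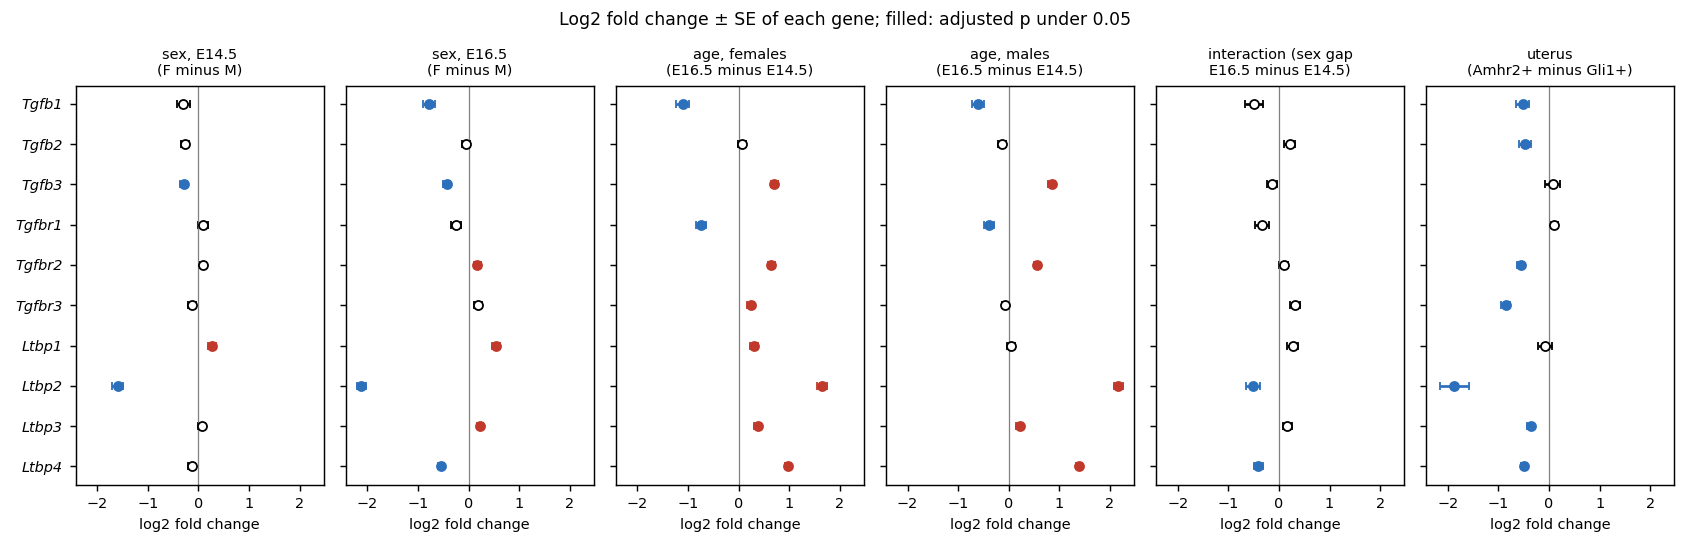
Log2 difference (horizontal axis) of each of the 10 genes in the 6 comparisons, with bars for the standard error of the edgeR estimate. Filled points passed an adjusted p of 0.05 (red higher and blue lower in the first-named group), and open points did not. Ltbp2 lies farthest from 0 in all 6 panels, at -1.60 and -2.12 between the sexes, 1.65 and 2.16 with age, -0.52 for the interaction and -1.87 in the uterus.

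Among the ligands, Tgfb1 (chr7:25687002-25705077, plus strand) was the least abundant per kb of exon and fell with age in both sexes. In females the 3 libraries had 12.6, 13.7 and 14.4 CPM at E14.5 and 6.83, 6.67 and 5.41 CPM at E16.5, without overlap. In males they had 15.3, 18.2 and 16.3 CPM at E14.5 and 12.54, 9.35 and 10.6 CPM at E16.5. The log2 change with age was -1.10 ± 0.13 (SE, adjusted p = 6.63e-06) in females and -0.62 ± 0.12 (adjusted p = 0.00141) in males. Every male library was above every female library of the same age. That difference passed the test at E16.5, where the female minus male log2 difference was -0.78 ± 0.12 (adjusted p = 0.000213), and did not at E14.5, where it was -0.29 ± 0.12 (adjusted p = 0.197). The change of the sex difference between the ages was -0.49 ± 0.17 on the log2 scale (adjusted p = 0.0945, or 0.0388 with the replicate number within each age as a block). In the uterus Tgfb1 was at 4.48 ± 0.307 CPM in Amhr2+ and 6.43 ± 0.0882 CPM in Gli1+ cells. The difference passed at a log2 value of -0.52 ± 0.13 (adjusted p = 0.0209), but not when any of the 3 Amhr2+ libraries or Gli1+ replicate 1 was left out, with adjusted p-values up to 0.0739.

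Tgfb2 (chr1:186622792-186705989, minus strand) varied little among the fetal groups. Its means were 119.7 ± 4.72 CPM in females and 144 ± 8.71 CPM in males at E14.5, and 126 ± 10.2 and 131 ± 13.9 CPM at E16.5. None of the 5 fetal comparisons passed for Tgfb2. The smallest adjusted p, 0.0639, was that of the sex difference at E14.5, and the 3 males, from 137 CPM upwards, lay above the 3 females, which reached 124 CPM. That difference, -0.27 on the log2 scale, did pass in 5 other analyses of all 3 libraries a group, namely library size scaling (adjusted p = 0.0368), no low-count filter (0.0358), DESeq2's Wald test (0.0449), the replicate block (0.0345) and a fit to the 6 compared libraries alone (0.0244). It also passed without E16.5 male 1 or 2, but not without any 1 of the 6 compared libraries. Without E16.5 male 2, Tgfb2 was lower at E16.5 than at E14.5 in males, by -0.23 (adjusted p = 0.0450). In the uterus the 3 Amhr2+ libraries had 53.5, 50.5 and 58.2 CPM and the 3 Gli1+ libraries 62.7, 86.9 and 75.1 CPM. The Amhr2+ level was lower by a log2 value of -0.47 ± 0.12 (adjusted p = 0.0212). That call was lost without Amhr2+ replicate 1 or 2, with adjusted p-values up to 0.0785.

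Tgfb3 (chr12:86056745-86079041, minus strand) was the ligand that rose with age. The 3 female libraries went from 30.2, 31.3 and 34.2 CPM at E14.5 to 48.9, 55.5 and 51.5 CPM at E16.5. The 3 male libraries went from 38.5, 38.8 and 39.8 CPM to 70.3, 67.7 and 72.4 CPM. All 4 groups were separate from one another, with males above females at each age. The log2 change with age was 0.70 ± 0.07 in females (adjusted p = 1.29e-06) and 0.84 ± 0.07 in males (adjusted p = 2.48e-07). The female minus male difference was -0.29 ± 0.07 at E14.5 (adjusted p = 0.019) and -0.43 ± 0.07 at E16.5 (adjusted p = 0.000172). At E14.5 it did not pass without female replicate 1 or 2 or male replicate 2 or 3, with adjusted p-values up to 0.113. In the uterus the groups overlapped, at 111 ± 23.8 CPM in Amhr2+ and 105 ± 6.02 CPM in Gli1+ cells, a log2 difference of 0.08 ± 0.15 (adjusted p = 0.748). The lowest value was that of Amhr2+ replicate 3, at 84.1 CPM, and without it the difference was 0.24 in favour of Amhr2+ (adjusted p = 0.0493).

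Per length, as CPM per kb of merged exons, Tgfb2 made up most of the summed ligand level in both E14.5 groups and in E16.5 females. In E16.5 males Tgfb2 and Tgfb3 held similar shares of the ligand sum. With the longest transcript in place of merged exons, their shares there were 50.5% and 41.1%. In the uterus Tgfb3 made up most of the sum. Tgfb2 held 63.0% ± 2.30 of the sum in females and 62.6% ± 1.92 in males at E14.5, and 56.6% ± 2.90 and 49.6% ± 3.54 at E16.5. Tgfb3 held 28.8% ± 1.82 and 29.1% ± 1.32 at E14.5, and 40.1% ± 3.03 and 45.7% ± 2.84 at E16.5. In the uterus Tgfb3 held 75.7% ± 5.46 in Amhr2+ and 68.8% ± 1.98 in Gli1+ cells. Tgfb1 was between 2.09% and 8.29% in the 6 group means, or between 3.89% and 13.97% with the longest transcript in place of merged exons. The fetal and uterine libraries were made with different kits, so their levels are set side by side and not compared. The summed ligand level was 32.8 ± 0.511 CPM per kb in females and 39.7 ± 1.18 in males at E14.5, and 38.3 ± 1.59 and 45.5 ± 1.55 at E16.5.

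**Figure D3:**
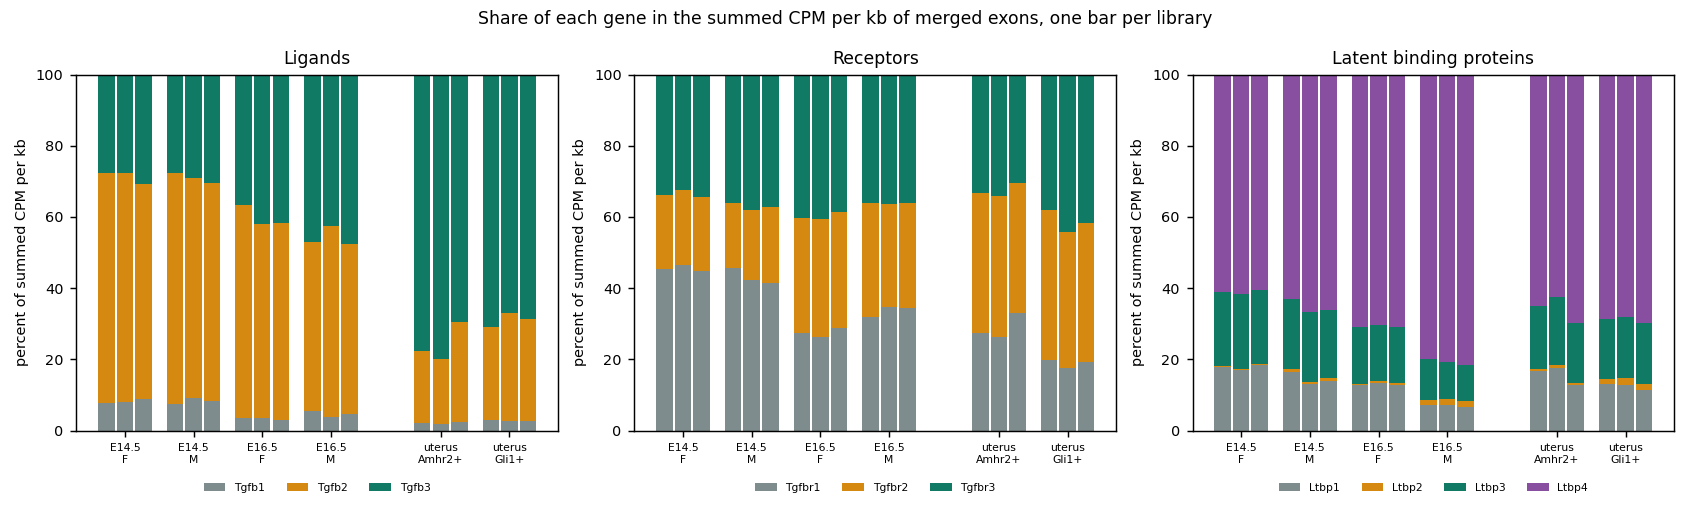
Share of each ligand, receptor and latent binding protein gene in the summed CPM per kb of merged exons of its class, in percent, as 1 stacked bar for each of the 18 RNA-seq libraries. Tgfb2 takes 49.6% to 63.0% of the ligand sum in the fetal group means, Tgfb3 takes 68.8% and 75.7% in the uterine ones, and Ltbp4 takes most of the latent binding sum in every group.

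The signalling receptors moved in opposite directions with age. Tgfbr1 (chr4:47353222-47414931, plus strand), the type I receptor, had 215, 214 and 199.7 CPM in the E14.5 female libraries and 126, 121 and 129 CPM at E16.5, a log2 change of -0.74 ± 0.10 (adjusted p = 3.29e-05). In males it had 235, 174 and 181 CPM at E14.5 and 134, 163 and 150.1 CPM at E16.5, a change of -0.40 ± 0.10 (adjusted p = 0.00781). E14.5 male 1 was the highest of the 12 fetal libraries, and without it the change in males was -0.25, still past the threshold. The change of the sex difference between ages was -0.34 ± 0.14 for Tgfbr1 (adjusted p = 0.149), and passed without that library, at -0.49 (adjusted p = 0.00619). The ages did not overlap in either sex. Tgfbr2 (chr9:116084293-116175360, minus strand), the type II receptor that binds ligand first, rose from 119 ± 3.76 to 187 ± 3.46 CPM in females and from 113 ± 8.89 to 166 ± 5.06 CPM in males. Its log2 change was 0.65 ± 0.06 in females (adjusted p = 1.13e-06) and 0.56 ± 0.06 in males (adjusted p = 8.4e-06).

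The Tgfbr1 to Tgfbr2 ratio of CPM per kb moved from 2.20 ± 0.0212 in females and 2.18 ± 0.281 in males at E14.5 to 0.839 ± 0.0418 and 1.13 ± 0.116 at E16.5. The summed level of the 3 receptors stayed between 67.4 and 70.2 CPM per kb in the 4 fetal group means. At E16.5 the 3 female ratios, from 0.793 to 0.875, lay below the 3 male ones, from 0.993 to 1.21. The single genes showed smaller sex differences at that age. Tgfbr2 was higher in females by 0.18 ± 0.06 on the log2 scale (adjusted p = 0.0481), a call that 13 of 18 alternative analyses lost. Among these were all that left out 1 female library of either age, E14.5 male 3 or E16.5 male 2 or 3. Tgfbr1 had a female minus male difference of -0.25 ± 0.10 (adjusted p = 0.0754) and Tgfbr3 one of 0.19 ± 0.07 (adjusted p = 0.0607). Both passed with the replicate number as a block, with adjusted p-values of 0.0338 and 0.0219. Whether same-numbered libraries of the 2 sexes are pairs is not settled. At E16.5 their deviations from the group means correlated at r of 0.115 to 0.396, but female 2 and male 1 also reached 0.108.

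Tgfbr3 (chr5:107106570-107289629, minus strand), the co-receptor, rose with age in females, from 154 ± 5.601 to 182 ± 7.13 CPM (log2 change 0.24 ± 0.07, adjusted p = 0.0136), a call lost without E14.5 female 2 or E16.5 female 2 (adjusted p up to 0.0612). In males it was at 168 ± 15.3 and 159.8 ± 9.23 CPM, a log2 difference of -0.07 ± 0.07 (adjusted p = 0.5). The change of the sex difference between ages was 0.31 ± 0.10 (adjusted p = 0.0597, or 0.0193 with the replicate block). In the uterus Tgfbr3 showed the second-largest difference of the 10 genes. The Amhr2+ libraries had 132, 141 and 121 CPM and the Gli1+ libraries 209, 257 and 247 CPM, well apart, with a log2 difference of -0.85 ± 0.09 (adjusted p = 0.000427). Tgfbr2 was also lower in Amhr2+ cells, at 194 ± 12.4 against 286 ± 6.26 CPM (log2 difference -0.56 ± 0.06, adjusted p = 0.000625). Tgfbr1 was at 116 ± 12.52 and 109 ± 6.10 CPM there and did not pass (0.10 ± 0.08, adjusted p = 0.436). Per kb, the Tgfbr1 to Tgfbr2 ratio was 0.755 ± 0.130 in Amhr2+ and 0.475 ± 0.0187 in Gli1+ cells, with no overlap of the libraries.

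**Figure D4:**
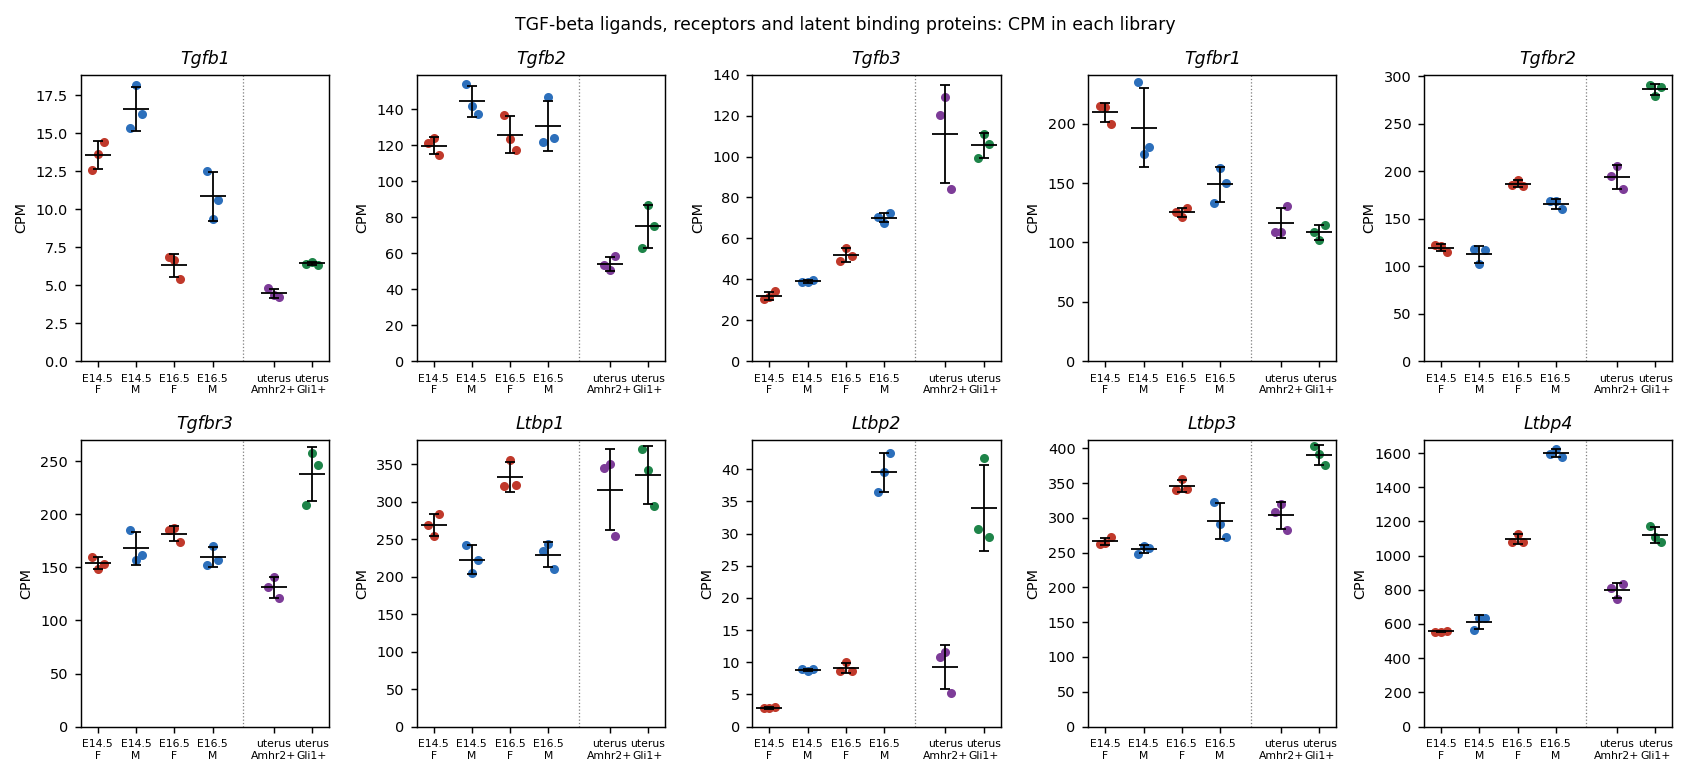
CPM of each of the 10 genes in each of the 18 RNA-seq libraries (points; red female, blue male, purple Amhr2+, green Gli1+ of the uterus), with the mean as a dash and the SD over 3 libraries as bars. A dotted line separates the fetal from the uterine table. Ltbp2 in E16.5 males, at 36.5 to 42.6 CPM, stands far above the other 3 fetal groups, where the highest library has 10.02 CPM.

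Ltbp2 (chr12:84783212-84876532, minus strand) had the largest sex and age differences of the 10 genes. At E14.5 the female libraries had 2.87, 2.83 and 3.04 CPM and the male libraries 8.92, 8.64 and 8.93 CPM. At E16.5 the females had 8.67, 10.02 and 8.69 CPM and the males 36.5, 39.6 and 42.6 CPM. Females of the later age were close to males of the earlier one, and the E16.5 males lay above all others. The female minus male log2 difference was -1.60 ± 0.11 (adjusted p = 7.76e-07) at E14.5, a 3.03-fold higher level in males, and -2.12 ± 0.09 (adjusted p = 1.55e-10) at E16.5, a 4.33-fold higher level. With age Ltbp2 rose 3.13-fold in females (adjusted p = 1.18e-08) and 4.48-fold in males (adjusted p = 3.87e-10). The widening of the sex difference, -0.52 ± 0.14 on the log2 scale, passed the test (adjusted p = 0.0241). It did not pass when 1 of 7 libraries was left out (E14.5 female 1, 2 or 3, E14.5 male 2, E16.5 female 1 or 3, or E16.5 male 3), with adjusted p-values up to 0.0767.

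Ltbp4 (chr7:27305136-27337692, minus strand), which supports elastic fibre assembly, had the highest level per kb of exon of the 10 genes in every group. The E14.5 females had 553, 555 and 560.2 CPM and the E14.5 males 562, 635 and 635 CPM. At E16.5 the females had 1077, 1129 and 1079 CPM and the males 1596, 1624 and 1577 CPM. Both E16.5 groups lay above both E14.5 groups. At neither age did the sexes overlap. The log2 difference was -0.14 ± 0.06 at E14.5 (adjusted p = 0.249), or -0.19 without E14.5 male 1 (adjusted p = 0.0400), and -0.55 ± 0.06 at E16.5 (adjusted p = 6.48e-06). The rise with age was 1.97-fold in females (adjusted p = 1.18e-08) and 2.62-fold in males (adjusted p = 7.7e-10). The change of the sex difference between ages was -0.41 ± 0.09 (adjusted p = 0.00566), and it passed in all 17 alternative analyses. Ltbp4 held 61.1% of the summed latent binding level per kb in E14.5 females and 80.8% in E16.5 males.

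The smooth muscle markers Acta2, Myh11, Cnn1, Des, Tagln and Actg2 moved as a sum in the direction of Ltbp2 and Ltbp4. Single markers did not all do so. At E14.5 their sum ranged from 302 to 326 CPM among females and from 607 to 888 CPM among males, and at E16.5 from 465 to 567 and from 1716 to 2893 CPM, and none of the 6 was at 0 in any group. At E16.5, 5 of the 6 were higher in males, and in males all 6 rose with age. Acta2, smooth muscle actin, had its lowest mean, 170.3 ± 8.81 CPM, among E14.5 females and its highest, 1808 ± 512 CPM, among E16.5 males. In females Acta2, Myh11 and Des rose with age and Tagln fell. The part of smooth muscle cells in the differences of Ltbp2, Ltbp4 and Tgfb3 was not tested.

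Other marker lists also moved with sex. Mesothelial markers (Upk3b, Msln, Lrrn4, Krt19, Muc16 and Upk1b) summed to 59.2 to 73.5 CPM among females and 88.7 to 104 CPM among males at E14.5, where none of the 6 passed. At E16.5 the sums were 29.4 to 70.8 and 72.8 to 99.0 CPM, and Upk3b, Msln and Muc16 were lower in females. Among mesenchyme markers at E16.5, Col1a1 was higher and Pdgfra, Dcn and Tcf21 were lower in females. Tcf21, a transcription factor of mesenchyme, was at 123 ± 26.6 and 278 ± 12.3 CPM in the sexes there, and Pdgfra, a growth factor receptor, at 646 ± 30.5 and 1175 ± 120 CPM, females first. Immune markers summed at E16.5 to 27.1 to 69.6 CPM among females and 11.9 to 45.7 CPM among males, and Csf1r, Adgre1 and Tyrobp were higher in females. Cd68, the most abundant of these markers, did not pass, at 34.5 ± 17.1 and 30.8 ± 19.2 CPM, females first. Levels were low for Adgre1 (1.84 and 0.375 CPM) and Tyrobp (1.16 and 0.275 CPM). Krt18, an epithelial marker, and Foxl2, of the gonadal somatic list, were lower in females at both ages. At E16.5 Krt18 had means of 8.16 and 12.8 CPM and Foxl2 of 34.3 and 52.3 CPM, females first. The other 5 epithelial markers did not pass at either age. Of the gonadal list Nr5a1 was also lower in females at E16.5, at 0.0910 and 0.495 CPM. The part of these differences in the sex differences of the 10 genes was not tested.

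**Figure D5:**
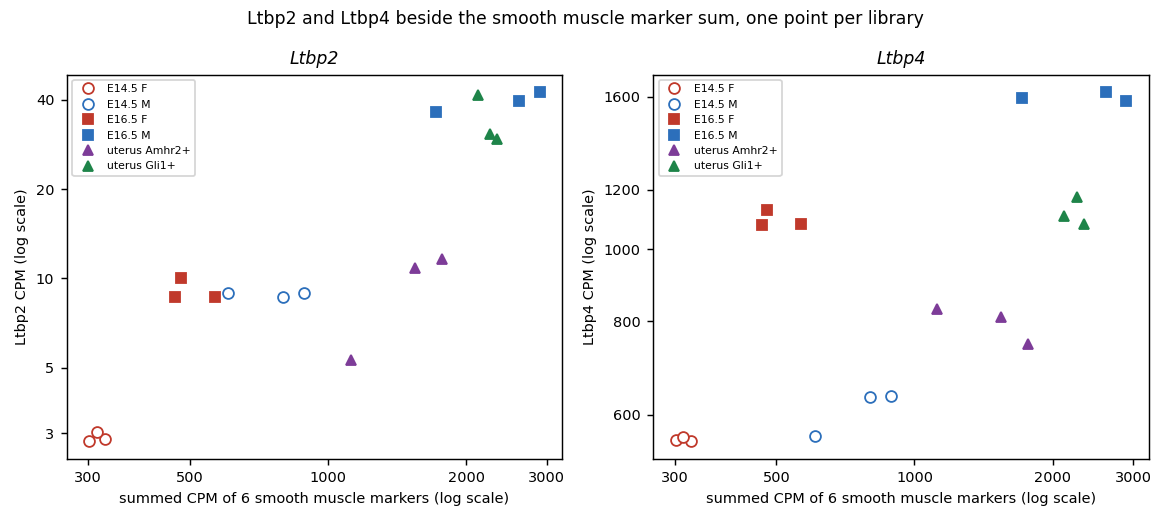
CPM of Ltbp2 and Ltbp4 (vertical, log scale) against the summed CPM of 6 smooth muscle markers (horizontal, log scale), with 1 point per library and a symbol and colour for each of the 6 groups. E16.5 males lie at the top right of both panels, and E16.5 females, at marker sums of 465 to 567 CPM, have 1077 to 1129 CPM of Ltbp4, above the 562 to 635 CPM of E14.5 males at sums of 607 to 888 CPM.

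Ltbp1 (chr17:75005568-75391767, plus strand), which binds latent TGF-beta and anchors it in the matrix, was higher in females at both ages. The E14.5 libraries had 269, 253 and 283 CPM in females and 242, 204 and 222 CPM in males. At E16.5 they had 321, 356 and 322 CPM in females and 234, 243 and 210.3 CPM in males, and the sexes overlapped at neither age. The log2 difference was 0.27 ± 0.08 at E14.5 (adjusted p = 0.0492) and 0.54 ± 0.08 at E16.5 (adjusted p = 7.15e-05). The E14.5 call was lost in 9 of 18 alternative analyses: library size scaling, and leaving out 1 female library of either age or E14.5 male 2 or 3. Ltbp1 rose with age in females (0.31 ± 0.08, adjusted p = 0.00496), while in males the difference was 0.04 ± 0.08 (adjusted p = 0.752). A difference between those 2 age changes was not detected (0.27 ± 0.11, adjusted p = 0.143), although it passed with the replicate block (adjusted p = 0.047).

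Ltbp3 (chr19:5740904-5758532, plus strand), which also binds latent TGF-beta, rose with age in females from 266 ± 5.14 to 346 ± 8.66 CPM (log2 change 0.38 ± 0.06, adjusted p = 0.000279). In males it was at 255 ± 5.99 and 295 ± 25.6 CPM, a smaller rise of 0.21 ± 0.06 (adjusted p = 0.0238) that 6 of 18 alternative analyses lost, among them those without E14.5 male 1 or 3 or E16.5 male 1. At E16.5 it was higher in females by 0.23 ± 0.06 (adjusted p = 0.0143), and not past the threshold without E16.5 female 2 or E16.5 male 3 (adjusted p up to 0.0973).

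In the uterus 3 of the 4 latent binding genes were lower in Amhr2+ cells, against 13.7% of all genes. Ltbp2 had 10.8, 11.6 and 5.29 CPM in the Amhr2+ libraries and 30.8, 41.7 and 29.5 CPM in the Gli1+ libraries, a log2 difference of -1.87 ± 0.29 (adjusted p = 0.00484) and 3.66-fold. Ltbp4 was at 796 ± 44.8 against 1121 ± 46.7 CPM (-0.49 ± 0.07, adjusted p = 0.00134) and Ltbp3 at 304 ± 19.3 against 390.4 ± 13.9 CPM (-0.36 ± 0.07, adjusted p = 0.00624). Ltbp1 was at 316 ± 54.2 and 336 ± 38.2 CPM with overlapping libraries (-0.09 ± 0.14, adjusted p = 0.681). Mesenchyme markers as a sum, mostly Col1a1 and Col3a1, moved the same way, with 21208 to 23035 CPM in Amhr2+ and 39128 to 43354 CPM in Gli1+ libraries. Of the 6, 5 were lower in Amhr2+ cells, and Pdgfra did not pass, at 579 ± 42.6 and 564 ± 40.4 CPM. Smooth muscle markers summed to 1122 to 1769 CPM in Amhr2+ and 2121 to 2340 CPM in Gli1+ libraries, and epithelial markers to 49.2 to 49.8 and 17.9 to 28.8 CPM. The part of these other differences in the lower levels of the 7 genes was not tested.

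Around these 10 genes, 52 genes of the same pathway were listed by role, of which 50 were tested. Of these 50, 6 were higher (2.59% of all genes) and 6 lower (3.69%) in females at E14.5, and 11 were higher (13.2%) and 14 lower (14.1%) at E16.5. The E14.5 count fell from 12 to 6 or 7 without E14.5 female 1, 2 or 3 or male 2 or 3. The sex difference changed with age for 7 (10% of all genes), or 15 with the replicate block and 12 without E16.5 male 1. With age 17 rose (21% of all genes) and 13 fell (18.6%) in females, and 19 rose (13.1%) and 2 fell (10.2%) in males. In Amhr2+ cells of the uterus 6 were higher (10.1%) and 22 lower (13.7%) than in Gli1+ cells. The median log2 difference of the 50 was 0.05 at E14.5, -0.04 at E16.5, 0.08 and 0.07 with age in females and males, and -0.21 in the uterus. The medians over all genes were -0.01, 0.01, 0.00, -0.01 and -0.00.

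Of the 12 signal transducers none passed between the sexes at E14.5 (6.28% of all genes) and 3 did at E16.5 (27.3%). With age in females 7 of them fell (18.6% of all genes) and 1 rose, Ski (21%). The 7 were Smad3, Smad4, Smad7, Smurf1, Skil, Tgif1 and Tgif2, most of which transmit or restrain the Smad signal. Skil, a Smad co-repressor, went from 144 ± 6.65 to 63.8 ± 9.57 CPM (log2 change -1.18 ± 0.22, adjusted p = 0.00229). In males Smad3 alone fell with age, by 0.19 on the log2 scale (adjusted p = 0.0454), a call lost in most alternative analyses, among them those without any 1 of the 6 E14.5 libraries. Among 5 receptor partners, Acvrl1, a type I receptor best known from endothelium, rose in both sexes, by 0.90 ± 0.07 in females and 1.12 ± 0.07 in males. It was lower in Amhr2+ than in Gli1+ cells of the uterus, at 33.9 ± 1.66 against 66.1 ± 4.23 CPM. Endoglin, encoded by Eng, another partner known from endothelium, was higher in females at E14.5 by 0.57 ± 0.07 (adjusted p = 0.000123). Endothelial markers summed to 65 to 126 CPM in the fetal libraries. Tie1 and Emcn of these 6 were higher in females at E14.5, and the other 4 did not pass. Kdr, among those 4, was lower on average in females (44.8 ± 2.60 CPM) than in males (55.1 ± 5.97 CPM). The E16.5 sex comparison split the list, with Tie1 and Emcn higher and Cdh5 and Kdr lower in females. With age Cdh5, Kdr, Tie1 and Emcn fell in females, while in males Cdh5 and Tek rose and Tie1 and Emcn fell. In the uterus the sum of the 6 was at most 29.8 CPM in Amhr2+ libraries and at least 37.2 CPM in Gli1+ libraries, and Tek, Tie1 and Emcn were lower in Amhr2+ cells. The part of endothelial cells in the differences of Acvrl1 and Eng was not tested.

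Of the 12 tested genes that act on latent TGF-beta, 3 were higher (13.2% of all genes) and 3 lower (14.1%) in females at E16.5. With age 4 rose (21% of all genes) and 1 fell (18.6%) in females, and 6 rose (13.1%) and none fell (10.2%) in males. Mmp14, a membrane-bound matrix protease, rose with age in both sexes. Its log2 change in females was 0.80 ± 0.08 (adjusted p = 1.21e-06), and its male means went from 420 ± 40.3 to 583 ± 46.8 CPM. Itgb8, an integrin subunit that releases latent TGF-beta, was lower in females at both ages, with means of 22.5 ± 0.805 and 32.6 ± 4.26 CPM in females and males at E14.5 and of 23.8 ± 2.44 and 50.5 ± 9.89 CPM at E16.5. Lrrc32, which anchors latent TGF-beta at cell surfaces, was lower in Amhr2+ than in Gli1+ cells.

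Of the 8 matrix scaffold genes, 5 rose with age in females (21% of all genes) and 5 in males (13.1%), among them the proteoglycan genes Dcn, Bgn and Fmod. Emilin1 fell in females (18.6% of all genes) and none fell in males (10.2%). In the uterus 6 were lower in Amhr2+ cells (13.7%). Dcn, which encodes the TGF-beta binding proteoglycan decorin, was at 474 ± 11.8 CPM in Amhr2+ and 1382 ± 169 CPM in Gli1+ cells (log2 difference -1.54 ± 0.09, adjusted p = 2.19e-05). Fbn1, encoding the fibrillin to which the binding proteins attach, was at 641 ± 39.8 and 922 ± 29.6 CPM there. Adamtsl2, whose product binds Ltbp1 and fibrillin, rose with age in males from 2.64 ± 0.905 to 10.1 ± 0.784 CPM (1.90 ± 0.21, adjusted p = 5.56e-06). It also rose in females, from 1.82 ± 0.376 to 4.67 ± 0.842 CPM. Fn1, encoding fibronectin, was higher in females at E16.5 by 0.65 ± 0.07 (adjusted p = 1.7e-06), and Emilin1, which limits the processing of the TGF-beta precursor, had a sex difference that changed by -0.80 ± 0.11 between ages (adjusted p = 0.000245).

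The 13 tested response genes are known to be induced or repressed by TGF-beta in one cell type or another. In every comparison some passed as higher and some as lower. With age 5 rose (21% of all genes) and 2 fell (18.6%) in females, and 7 rose (13.1%) and 1 fell (10.2%) in males. At E14.5, 1 was higher (2.59%) and 4 lower (3.69%) in females. In Amhr2+ cells of the uterus 3 were higher (10.1%) and 6 lower (13.7%). At E16.5, 4 were higher (13.2% of all genes) and 6 lower (14.1%) in females. Tgfbi, a secreted matrix protein named for its induction by TGF-beta, had means of 978 ± 44.9 (female) and 557 ± 66.1 CPM (male) at E14.5, and of 890.4 ± 64.9 and 257 ± 46.6 CPM at E16.5. Its sex difference of 0.81 ± 0.11 at E14.5 and 1.79 ± 0.12 at E16.5 was opposite in sign to those of Tgfb1 and Tgfb3. Acta2, which is also a smooth muscle marker, was lower in females, with log2 differences of -1.79 ± 0.24 at E14.5 and -2.72 ± 0.25 at E16.5. Timp3, an inhibitor of matrix proteases, fell with age in females from 741 ± 17.1 to 288 ± 7.67 CPM and was lower there than in males at E16.5 (-1.28 ± 0.08, adjusted p = 6.49e-09). In the uterus Tgfbi had the largest log2 difference of the pathway genes that were higher in Amhr2+ cells, at 2040 ± 239 CPM in Amhr2+ and 1068 ± 41.2 CPM in Gli1+ cells (0.93 ± 0.09, adjusted p = 0.00022), while the collagen gene Col1a2 was lower in Amhr2+ cells by -1.75 ± 0.07 (adjusted p = 4.96e-06).

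The genes whose log2 CPM was most like that of Ltbp2 over the 12 fetal libraries, among 10456 genes, were Klf15, which encodes a transcription factor, and Smoc2, which encodes a matricellular protein, with Pearson r of 0.995 and 0.992. Klf15 was at 1.40 ± 0.0550 and 3.44 ± 0.410 CPM in females and males at E14.5, and at 3.67 ± 0.417 and 14.47 ± 0.279 CPM at E16.5. For Ltbp4 they were Adamts5, encoding a protease of matrix proteoglycans, and Ptrf, encoding the caveolar coat protein cavin, with r of 0.989 each. Adamts5 was at 32.9 ± 2.23 and 37.8 ± 1.81 CPM at E14.5, and at 91.8 ± 7.16 and 133 ± 13.5 CPM at E16.5. These correlations describe 4 groups of 3 libraries that share their group means, and carry no test.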

How the data were processed

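RNA-seq covered 12 fetal and 6 uterine libraries, grouped by sample titles, with replicate numbers from the same titles. The values are raw counts per gene, deposited by the authors in 2 tables with 1 column per library. A non-stranded kit served for the fetal and a stranded kit for the uterine libraries, per the labels' protocols. The submitters' processing notes name STAR 2.5, featureCounts, Subread 1.5.0-p1, Bowtie 1.2, MACS2 2.1.1, SAMtools 1.3.1, bedtools 2.24.0, Picard and the build mm10. The annotation behind the counts, the use of strand in counting and the peak threshold are not given in the sources used here. Counts of genes that overlap another gene are therefore uncertain. By position, Tgfb2 and Tgfb3 each overlap 2 other genes, Tgfbr3 overlaps 3, and Ltbp2 and Ltbp3 overlap 1 each. The effect of these overlaps on the counts was not tested. The ATAC-seq list deposited by the authors holds peak positions only.

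Each table was fitted by itself with edgeR 4.0.16 in R 4.3.3 (filterByExpr, TMM, robust quasi-likelihood test, Benjamini-Hochberg adjustment, threshold 0.05), with the 12 fetal libraries in 1 model of 4 group means. The scripts were tested on simulated data. CPM use TMM-scaled library sizes, standard errors were derived from the log2 fold change and its F statistic, and levels per length divide CPM by merged exons of GENCODE, the annotation used for start sites. DESeq2 1.42.0, other scaling, no count filter, a replicate block, fewer libraries in the fit and leaving out each library were the alternatives. Replicates of a group differed by more than sampling noise. Same-numbered libraries of the sexes at E16.5 correlated in their deviations from the group means at r of 0.115 to 0.396. These values are above the limit of 0.1 set for calling numbers pairs, but female 2 and male 1 also reached 0.108. In the other comparisons not all same-numbered libraries reached that limit. Their r was 0.0504 to 0.0725 between the sexes at E14.5 and 0.00176 to 0.243 in the uterus. Whether numbers mark pairs is thus not settled.

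The 10 genes and all lists were chosen with earlier results of these data known. All 10 are given in every comparison. Of the pathway lists, the 3 genes with the largest change in each direction were eligible for naming, among those past the threshold with at least 10 CPM in the higher group, as were genes that make up a count of their list. The 2 genes most like a member were named for members whose sex difference changed with age. Protein sequences were not used here. No sample column was left unmapped.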

Additional observations from a re-analysis of the deposited data

Results flagged for a closer look

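The sex difference of 2 of the 10 genes differed between E14.5 and E16.5 by a direct test of that difference in edgeR. For Ltbp2 the female minus male log2 difference changed by -0.52 (adjusted p = 0.0241), from -1.60 to -2.12. For Ltbp4 it changed by -0.41 (adjusted p = 0.00566), from -0.14 to -0.55. Groups of 3 libraries are too small for the outlier check used in larger groups.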

How the results depend on the processing

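Of 35 member calls, 26 passed under every alternative, 9 were lost under at least 1 and none changed direction. With each library left out in turn, the genes passing ranged from 553 to 1678 (sex, E14.5), 3618 to 5745 (sex, E16.5), 5249 to 7729 (age, females), 3364 to 4238 (age, males), 1335 to 2687 (interaction) and 1949 to 3521 (uterus). In the same order, members passing ranged from 1 to 4, 5 to 9, 8 to 9, 6 to 8, 1 to 4 and 5 to 7, and pathway genes from 6 to 14, 18 to 27, 24 to 30, 18 to 22, 6 to 12 and 22 to 25. For the interaction, the replicate block gave 5 members and 15 pathway genes in place of 2 and 7, and DESeq2's Wald test gave 12 pathway genes. Beside the Tgfbr1 and Tgfbr3 calls it added between the sexes at E16.5, the block added Tgfb2 at E14.5 and took away Ltbp3 in males with age (adjusted p = 0.0774).

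Values that changed sign were never past the threshold on the changed side. With library size only, Ltbp1 with age in males became -0.0133. With 1 library left out, log2 differences ranged for Ltbp1 with age in males from -0.0182 (without E14.5 male 2) to 0.113, for Tgfbr3 with age in males from -0.12 to 0.00248 (without E14.5 male 1), for Tgfb2 between the sexes at E16.5 from -0.131 to 0.0346 (without E16.5 male 2), and in the uterus for Tgfb3 from -0.0402 (without Amhr2+ replicate 2) to 0.241 (without Amhr2+ replicate 3) and for Ltbp1 from -0.172 to 0.051 (without Amhr2+ replicate 3). The cause was not tested. Scaling by library size only moved the share of called genes that were higher from 53.0% to 44.4% (age, females), 56.1% to 41.2% (age, males) and 42.5% to 63.5% (uterus).

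With the longest transcript in place of merged exons, the level in CPM per kb over the 12 fetal libraries became 4.59 for Tgfb1, 25.4 for Tgfb2, 29.5 for Tgfbr1, 27.3 for Tgfbr3, 39.5 for Ltbp1, 2.23 for Ltbp2, 50.7 for Ltbp3 and 179 for Ltbp4, all higher, since the longest transcript is shorter. Among peaks, 7 members had one on an annotated start (81.3% of tested genes) and 10 had a wide one within 1 kb (82.2%). Depth was lowest for Tgfb1 and Ltbp2, where 3 libraries a group limit the precision.

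Of 34 values of named pathway genes, 6 lost their call somewhere: Ctgf, Tgfb1i1 and Cd109 between the sexes at E14.5, Smad3 with age in males, and Ctgf and Postn in the uterus.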
